A study of Mus musculus with 7 samples.

Results

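The synaptotagmins are a family of membrane proteins, most of them carried on vesicles, with a pair of calcium-sensing C2 domains. Here 10 of them are described (Syt1, Syt2, Syt3, Syt4, Syt5, Syt6, Syt7, Syt9, Syt10 and Syt11), out of 16144 genes tested, in the neocortex of mice labelled CKO, with a genotype naming the nuclear receptor COUP-TFI and Nex-Cre, and of wild-type mice. The synaptotagmins Syt8, Syt12, Syt13, Syt14, Syt15, Syt16 and Syt17 were also tested and are counted with other tandem C2 proteins, so counts of members leave them out. Each member was taken as the probe set annotated with exactly that symbol, and each of the 10 genes had 1 such probe set. Within the family, Syt6 and Syt4 were selected on their log2 differences between the groups, which earlier results of these data showed to be opposite, so those differences are given as descriptions with no test.

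RNA came from the whole neocortex of C57BL/6 mice and was read on 7 Affymetrix arrays, 1 for each sample. In 4 samples, labelled CKO, the genotype is given as COUP-TFI_Nex-Cre. In the other 3, labelled WT, it is given as wild type, and the labels do not say whether WT mice carried Cre or a modified COUP-TFI allele. COUP-TFI is encoded by Nr2f1. Nex-Cre is expressed from the Neurod6 locus in postmitotic glutamatergic neurons, so other cells of the tissue are not its main target. The age of the mice is not stated in the labels. All samples had an input of 0.2 µg and an RNA integrity number of 10. Nothing in the labels says that each array held a separate animal, so errors and p-values reflect only how these samples varied, and that variation may be technical. Values are the authors' RMA log2 signals, in which 1 unit is a doubling, and the number of arrays limits the precision.

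The targeted gene was measured first. Nr2f1 had a log2 signal of 10.63, 10.79, 10.60 and 10.70 on CKO 1, CKO 4, CKO 34 and CKO 43, and of 11.08, 11.16 and 10.88 on WT 6, WT 27 and WT 38. The groups did not overlap, with a mean log2 difference of -0.36 (SE 0.074, limma adjusted p 0.435). Where its probes lie relative to the deleted part is unknown here, so this is no check of the labels. Markers of neocortical excitatory neurons, 8 of 10 tested (among them Emx1, Neurod6, Tbr1 and Slc17a7), had a mean log2 signal of 11.82 to 11.92 in CKO and 11.75 to 11.92 in WT. Among them Bcl11b and Tbr1 were higher and Neurod6 lower in CKO with no overlap, as were 5.39% and 2.99% of all genes. Neurod6, the locus of Nex-Cre, had a log2 difference of -0.20 (SE 0.057, limma adjusted p 0.711), and the part of the Cre allele in it was not tested. By the array identifiers, CKO 1 and CKO 4 form set 1, the other CKO arrays with WT 27 and WT 38 form set 2, and WT 6 is alone in set 3. The labels do not say whether these sets were processed separately.

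Synaptotagmins couple a rise of calcium to the fusion of vesicles with the plasma membrane, through the SNARE proteins that pull both membranes together. Syt1 and Syt2 are fast sensors of synaptic vesicles, Syt5 belongs to the same branch of the family, and Syt7 is a slower sensor of high affinity. Syt3, Syt6, Syt9 and Syt10 form a group linked into dimers by N-terminal cysteines. In some of the literature the names Syt5 and Syt9 are exchanged, and both are used here as in the array annotation and RefSeq. Syt4 and Syt11 have a serine in place of a calcium-binding aspartate in the first C2 domain. Syt4 is found on dense-core vesicles and Golgi membranes and is induced by neuronal activity. Syt6 is used as a marker of layer 6 corticothalamic neurons.

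Because the targeted protein is a nuclear receptor that binds AGGTCA half-sites, the promoters of the members were searched for these letters on both strands. The RefSeq promoter table (build GRCm38.p6, 250 bases before to 50 after each start) held 11 windows for 7 members: Syt1, Syt2, Syt3, Syt6, Syt9, Syt10 and Syt11. AGGTCA was present for 3 of these 7 genes, Syt1, Syt2 and Syt6, and in 4 of the 11 windows. It was present in 16.3% of all 32851 windows in the table and for 18.1% of the 27025 genes. None of the 11 windows held a direct repeat of 2 half-sites with 1 base between them, and 0.04% of all windows did. Syt6, the member with the largest difference between groups, had 3 windows on the plus strand, and those at the first and last start are printed 5′ to 3′ with AGGTCA in capitals.
Syt6 first start, chr3:103574995-103575294: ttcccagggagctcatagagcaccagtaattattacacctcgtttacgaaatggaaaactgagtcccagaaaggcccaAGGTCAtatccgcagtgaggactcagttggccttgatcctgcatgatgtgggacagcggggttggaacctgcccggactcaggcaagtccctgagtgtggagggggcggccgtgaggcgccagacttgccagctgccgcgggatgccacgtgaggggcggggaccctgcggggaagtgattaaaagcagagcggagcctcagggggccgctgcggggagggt
Syt6 last start, chr3:103575876-103576175: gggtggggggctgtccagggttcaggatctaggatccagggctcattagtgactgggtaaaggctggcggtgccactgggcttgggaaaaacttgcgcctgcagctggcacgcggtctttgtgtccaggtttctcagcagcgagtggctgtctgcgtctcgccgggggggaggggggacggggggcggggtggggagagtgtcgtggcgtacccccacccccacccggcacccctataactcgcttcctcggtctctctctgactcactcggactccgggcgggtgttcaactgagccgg
The half-site begins 172 bases before the first start. A second window, chr3:103575032-103575331, overlaps the first and holds the same letters 209 bases before its own start, and the last window does not hold them. A match of letters is a description and does not show binding.

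Syt6 (probe set 10494945) was the member with the widest separation of the groups. Its log2 signal was 10.31, 10.30, 10.35 and 10.27 on CKO 1, CKO 4, CKO 34 and CKO 43, and 9.60, 9.69 and 9.60 on WT 6, WT 27 and WT 38. The CKO arrays spanned 0.085 and the WT arrays 0.092, while 0.57 separated the lowest CKO array from the highest WT array. The CKO mean was 10.31 ± 0.035 (SD, n = 4) and the WT mean 9.63 ± 0.052 (SD, n = 3), a log2 difference of 0.67 (SE 0.041), or 1.60-fold. Among the arrays of set 2 alone the log2 difference was 0.66, and leaving out any 1 array gave 0.66 to 0.70. In bulk tissue, more cells that express a gene and more RNA in each such cell cannot be told apart.

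Markers of layer 6 neurons and of striatal neurons were measured on the same arrays as Syt6. Without Syt6, the 14 layer 6 corticothalamic markers tested had a mean log2 signal of 10.89 to 10.94 in CKO and 10.85 to 10.92 in WT, ranges that overlap. Their median log2 difference was 0.046, with 9 positive and 5 negative, and single markers differed in both directions. With limma 4 were higher and 2 lower at an unadjusted p under 0.05, beside 6.79% of all genes in either direction. None passed the adjustment. With no overlap 3 were higher and 2 lower, as were 5.39% and 2.99% of all genes. Ntsr1 differed by -0.47 (SE 0.114, adjusted p 0.655) and Ppp1r1b by 0.43 (SE 0.068, adjusted p 0.251). The 10 striatal markers tested were all positive, beside 58.9% of all genes, with a median of 0.26. Their mean log2 signal was 8.71 to 9.09 in CKO against 8.43 to 8.63 in WT. Ppp1r1b is in both lists, so the lists are not separate. Without it, the 9 striatal markers tested were all positive, with a median of 0.24. Tac1, also a listed striatal marker, lay below the signal filter. The part of striatal tissue in the Syt6 difference was not tested.

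Syt4 (probe set 10457942) differed in the opposite direction and varied more within CKO. Its log2 signal was 11.02, 10.78, 11.02 and 10.73 on CKO 1, CKO 4, CKO 34 and CKO 43, and 11.29, 11.26 and 11.40 on WT 6, WT 27 and WT 38. All CKO arrays lay below all WT arrays, with 0.24 between the nearest of them, but CKO 1 and CKO 34 stood near 11.02 and the other CKO arrays lower. The CKO mean was 10.89 ± 0.15 (SD, n = 4) and the WT mean 11.31 ± 0.072 (SD, n = 3), a log2 difference of -0.43 (SE 0.083), or 0.745 of the WT signal. Among the arrays of set 2 alone the log2 difference was -0.45, and leaving out any 1 array gave -0.47 to -0.37.

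**Figure D1:**
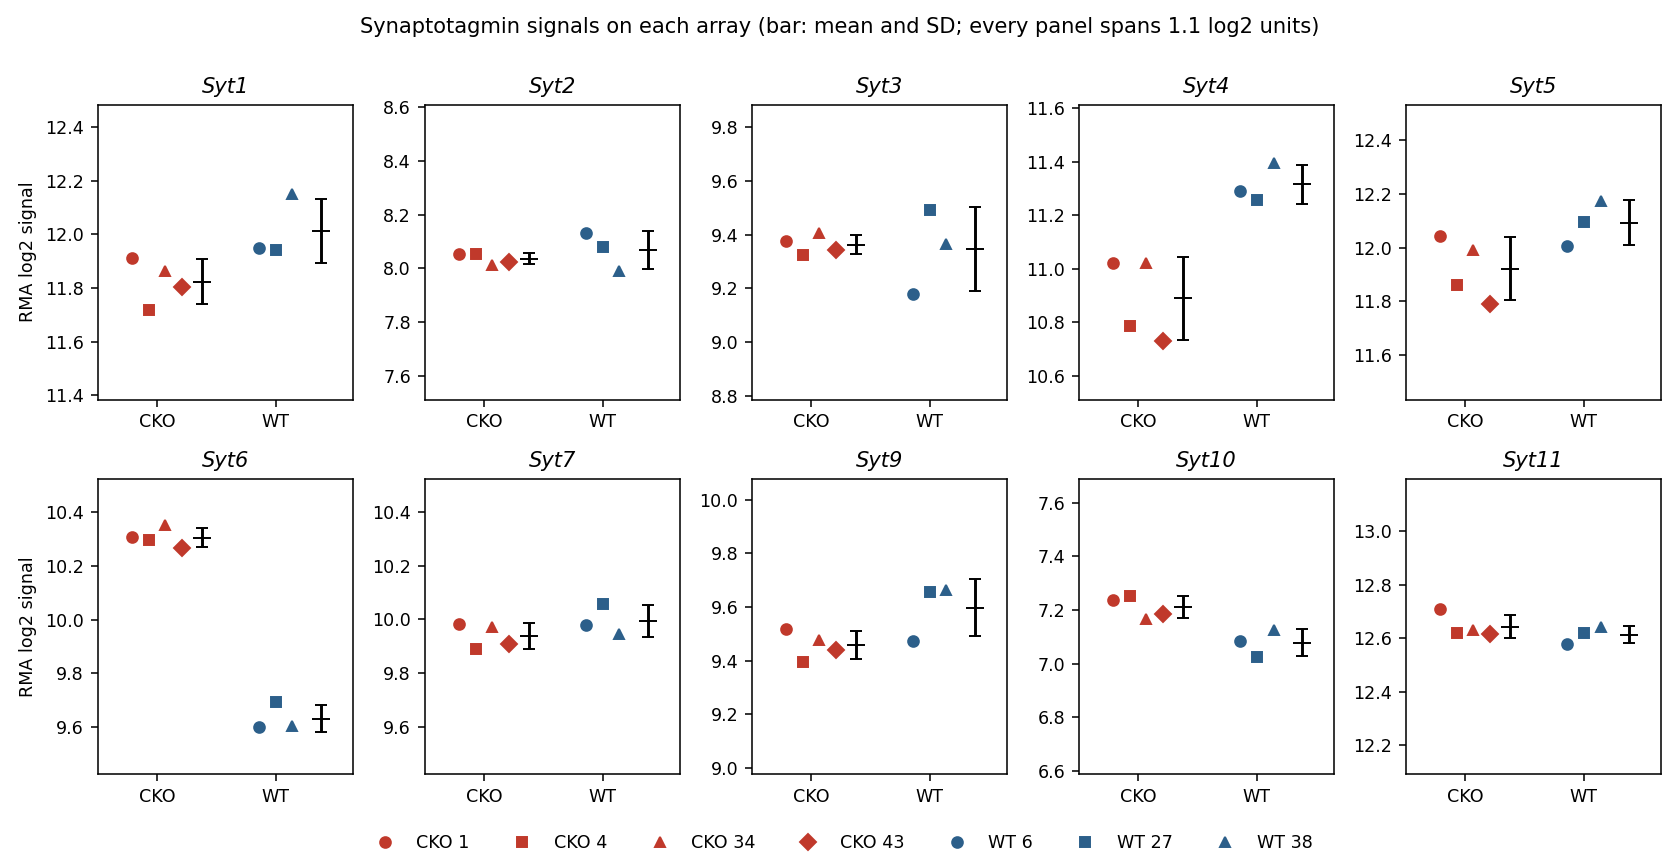
RMA log2 signal (y axis) of the 10 synaptotagmins on each of the 4 CKO (red) and 3 WT (blue) arrays, with the mean and SD of each group as a black bar and every panel on a scale of equal span. The Syt6 arrays lie at 10.27 to 10.35 in CKO and 9.60 to 9.69 in WT, while the Syt4 arrays lie at 10.73 to 11.02 in CKO and 11.26 to 11.40 in WT.

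Syt1, Syt2 and Syt5 had negative differences, none of which passed limma's adjustment. Syt1 (probe set 10372324), the main sensor of synchronous release in forebrain neurons, had a log2 signal of 11.91, 11.72, 11.86 and 11.80 on CKO 1, CKO 4, CKO 34 and CKO 43, and of 11.95, 11.94 and 12.15 on WT 6, WT 27 and WT 38. The groups did not overlap, but only 0.027 parted CKO 1 from WT 27, and WT 38 stood above the rest. The log2 difference was -0.19 (SE 0.067, limma adjusted p 0.722), and without WT 38 it was -0.12 (adjusted p 0.490).

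Syt5 (probe set 10559580) had a log2 signal of 12.04, 11.86, 11.99 and 11.79 on the CKO arrays in the same order and of 12.01, 12.10 and 12.17 on the WT arrays. CKO 1 lay above WT 6, so the groups overlapped. The log2 difference was -0.17 (SE 0.070, limma adjusted p 0.726). Syt2 (probe set 10350077), the sensor of fast hindbrain and interneuron synapses, lay at a log2 signal of 8.01 to 8.05 in CKO and 7.99 to 8.13 in WT. Its log2 difference was -0.031 (95% interval -0.13 to 0.068, limma adjusted p 0.867), and the groups overlapped. On every array Syt2 lay below the array's median log2 signal of 8.23, so this is a weak signal in which a difference can be missed.

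Syt7 (probe set 10461459), the high-affinity sensor, also overlapped, at 9.89 to 9.98 in CKO and 9.94 to 10.06 in WT. The log2 difference was -0.056 (95% interval -0.16 to 0.047, limma adjusted p 0.789). The interval leaves room for a small change in either direction.

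The relatives of Syt6 in the cysteine-linked group did not share one direction. Syt10 (probe set 10431625), which controls secretion of IGF-1 in olfactory bulb neurons, had a log2 signal of 7.24, 7.25, 7.17 and 7.18 on CKO 1, CKO 4, CKO 34 and CKO 43, and of 7.09, 7.03 and 7.12 on WT 6, WT 27 and WT 38. Every CKO array was above every WT array, by at least 0.044, for a log2 difference of 0.13 (SE 0.042, limma adjusted p 0.711). Its mean was 0.31 above the filter for dim probe sets, a log2 signal of 6.84, so this is a small difference in a weak signal.

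Syt9 (probe set 10556067) had a log2 signal of 9.52, 9.39, 9.48 and 9.44 on the CKO arrays in the same order and of 9.47, 9.66 and 9.66 on the WT arrays. WT 6 lay among the CKO arrays and the other WT arrays above them. Its log2 difference was -0.14 (SE 0.057, limma adjusted p 0.726), and without WT 6 it was -0.20 (adjusted p 0.495). Syt3 (probe set 10552656), a sensor linked to endocytosis of AMPA receptors, lay at 9.32 to 9.41 in CKO, inside the WT range of 9.18 to 9.49. Its log2 difference was 0.018 (95% interval -0.14 to 0.18, limma adjusted p 0.965), and it turned to -0.065 without WT 6, the lowest array.

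Syt11 (probe set 10499431), the close relative of Syt4, had groups that overlapped. It lay at a log2 signal of 12.61 to 12.71 in CKO and 12.58 to 12.64 in WT, with a log2 difference of 0.031 (95% interval -0.062 to 0.12, limma adjusted p 0.860).

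In all, 4 members had groups that did not overlap. Syt6 and Syt10 were higher in CKO on every array, as were 5.39% of all genes tested, and Syt1 and Syt4 were lower, as were 2.99%. Syt6 and Syt4 were picked for this difference, so among the 8 members not picked only Syt10 and Syt1 had groups that did not overlap. At an adjusted p under 0.05 limma called 0.0248% of all genes and, among the members, Syt6, which nothing is read from because that contrast picked it. None of the 8 members that were not picked passed, with adjusted p-values of 0.711 to 0.965. The median log2 difference of the 10 members, Syt6 and Syt4 included, was -0.044, with 6 negative and 4 positive. Over all genes it was 0.014, and 58.9% were positive. Without WT 6, Syt5 and Syt9 joined Syt1 and Syt4, and 4 members were lower with no overlap, as were 7.26% of all genes. Without WT 38 Syt2 joined them and without CKO 1 Syt5 did, with 10.5% and 4.94% of all genes lower. The brightness of different probe sets depends on their probes, so no order of levels between the paralogues is given.

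**Figure D2:**
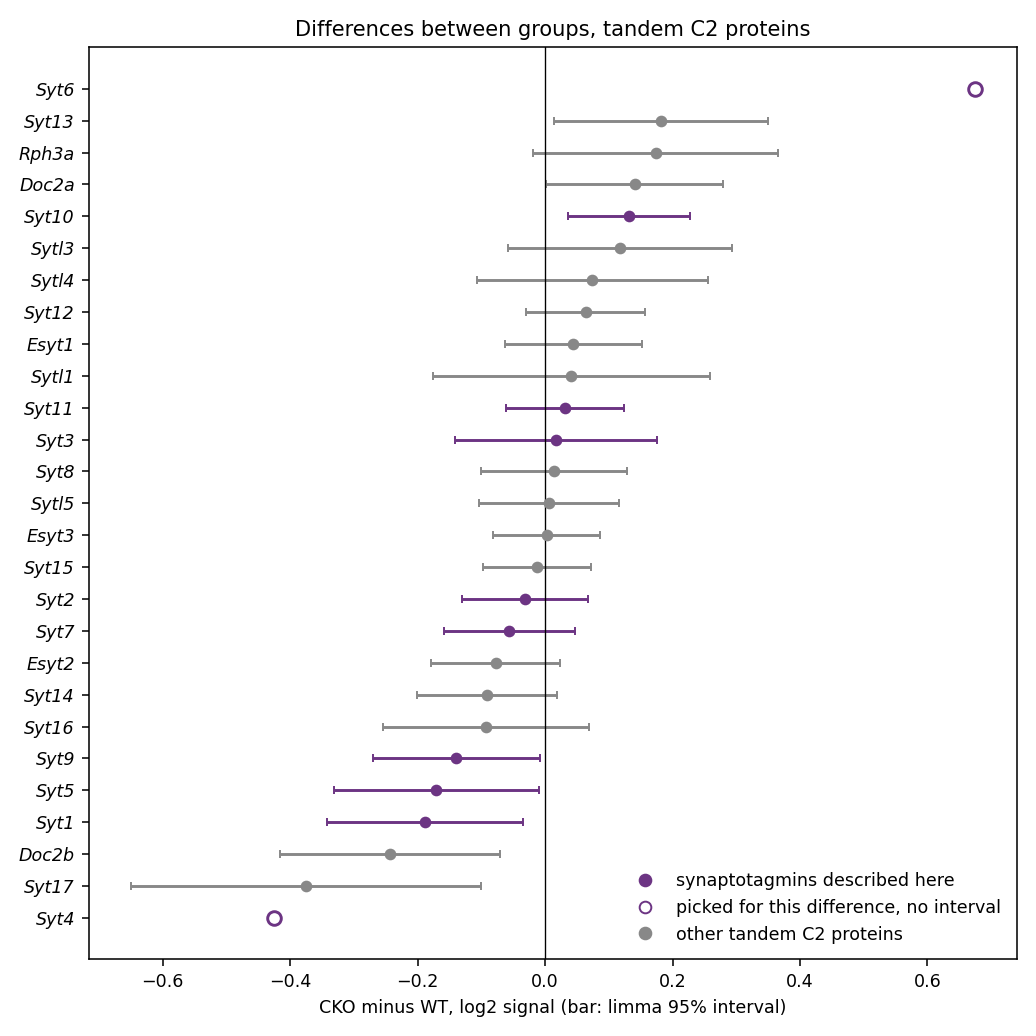
Log2 difference, CKO minus WT (x axis), for the 10 synaptotagmins (purple) and 17 other tandem C2 proteins (grey), with limma's 95% interval as a bar and no interval for Syt6 and Syt4, which were picked for this difference. Syt6 stands at 0.67, with the next gene, Syt13, at 0.18, and Syt4 at -0.43, with Syt17 next to it at -0.38.

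Within the CKO group the members shared an order that the choice of members did not use. CKO 4 and CKO 43 were the 2 lowest CKO arrays for 8 of the 10 members, all but Syt2 and Syt10, while 12.3% of all genes tested had that order. This pattern was chosen after the values were seen and was not tested. Its size differed between members: the CKO arrays spanned 0.29 for Syt4, 0.25 for Syt5 and 0.19 for Syt1, but 0.096 for Syt7 and for Syt11 and 0.085 for Syt6. CKO 4 belongs to array set 1 and CKO 43 to set 2. WT 38 was the highest WT array for 6 members: Syt1, Syt4, Syt5, Syt9, Syt10 and Syt11.

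Markers of dividing cells ran the other way on these arrays. The 14 tested had a mean log2 signal of 10.99, 11.05, 11.00 and 11.03 on CKO 1, CKO 4, CKO 34 and CKO 43, highest on the arrays with the lowest Syt4. They stood at 10.97, 10.91 and 10.80 on WT 6, WT 27 and WT 38, lowest on the array with the highest Syt4. All 14 were higher in CKO, beside 58.9% of all genes, with a median log2 difference of 0.13. None passed limma's adjustment (7 had an unadjusted p under 0.05, beside 6.79% of all genes). Of the 14 astrocyte and radial glia markers all were positive too, with means of 10.78 to 10.91 in CKO and 10.69 to 10.84 in WT. Their part in the differences of Syt4 and Syt1 was not tested.

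Genes with the most similar array profile were found by the root mean square difference of centred log2 signals over the 7 arrays. For Syt6, whose own centred signals had a root mean square of 0.34, the nearest was Rasgrf1, a Ras exchange factor, at 0.088. Ppp1r1b, which encodes DARPP-32, followed at 0.14, then Lgals1 (galectin-1) at 0.16, the growth factor gene Fgf18 at 0.16 and Ttc39b at 0.18. All of these 5 were higher on each CKO array than on each WT array, which choosing them for likeness to Syt6 favours, so nothing is read from it. Syt6 stayed flatter within the CKO group than Ppp1r1b, which ranged there from 10.21 on CKO 43 to 10.49 on CKO 4.

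For Syt4 the root mean square of its own centred signals was smaller, 0.24, which favours smaller distances. The distances to its nearest genes are therefore not compared with those for Syt6. Gabbr2, a GABA-B receptor subunit, and Sncb, beta-synuclein, were each at 0.070. Pfkp, a phosphofructokinase, was at 0.077, Slc16a7, a monocarboxylate transporter, at 0.083 and Sertm1 at 0.084. In each of these 5 CKO 4 and CKO 43 were the lowest CKO arrays, as for Syt4, and the groups did not overlap. Choosing the genes for likeness to Syt4 favours both traits, so nothing is read from them. Likeness over 7 arrays that also share RNA and processing is a description of these samples.

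**Figure D3:**
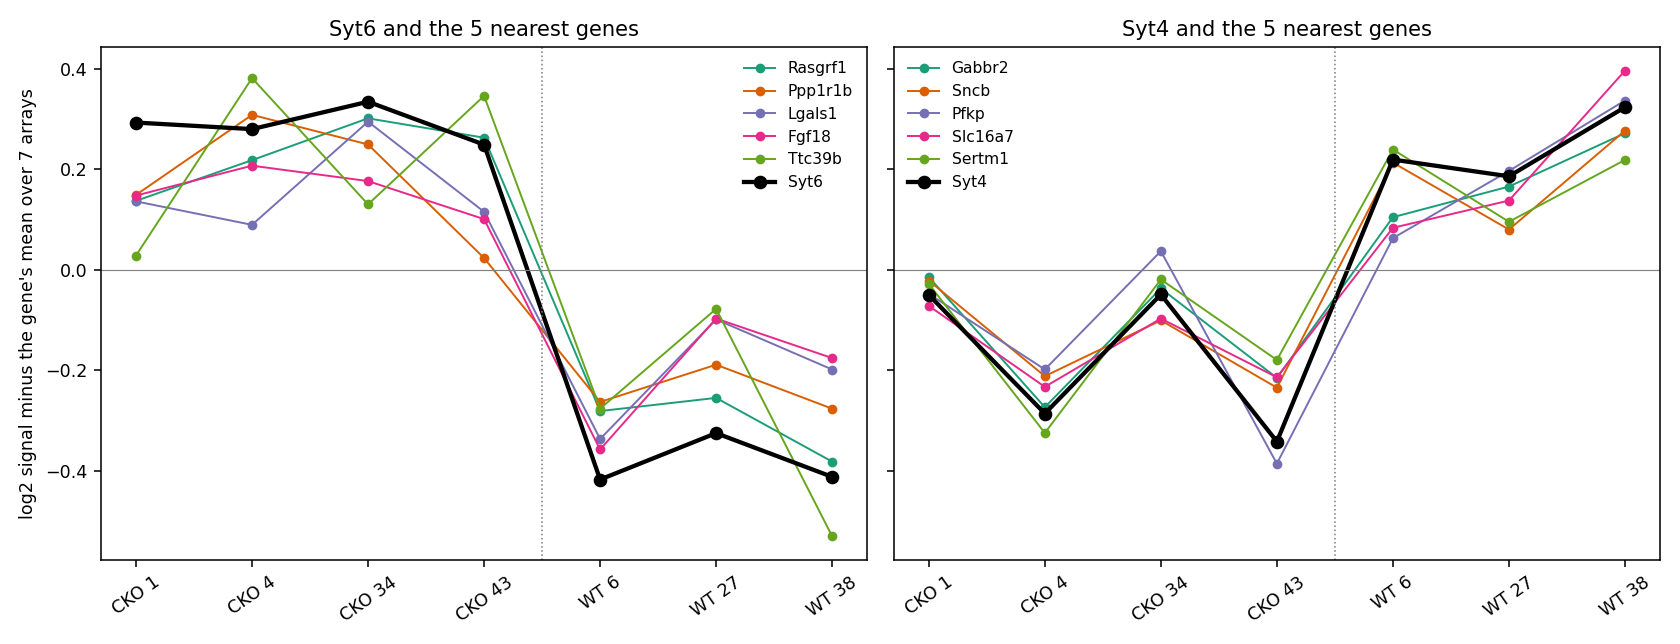
Log2 signal minus the gene's mean over the 7 arrays (y axis) on each array (x axis; a dotted line parts CKO from WT) for Syt6 and for Syt4, in black, with the 5 genes nearest to each in colour. Syt6 is flat within each group, and Syt4 and its nearest genes dip on CKO 4 and CKO 43.

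Other tandem C2 proteins, the remaining synaptotagmins among them, were measured from a list of 18, of which 17 passed the filter. Doc2b and Syt17 were lower in CKO with no overlap, as were 2.99% of all genes, and Syt12 was higher, as were 5.39%. None passed an adjusted p of 0.05 with limma (4 had an unadjusted p under 0.05, as did 6.79% of all genes), 11 were positive and 6 negative, and the median log2 difference was 0.015. Doc2b, a soluble calcium sensor of spontaneous and asynchronous release, was at a log2 signal of 8.41 to 8.57 in CKO and 8.58 to 8.88 in WT, a log2 difference of -0.24 (SE 0.075, adjusted p 0.711). Syt17 was at 7.50 to 8.06 in CKO and 8.08 to 8.28 in WT, with CKO 4 the lowest array. Its log2 difference was -0.38 (SE 0.120, adjusted p 0.711), and -0.27 without CKO 4.

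The SNAREs that synaptotagmins act on showed smaller differences. Of 18 SNARE genes and handlers tested, 9 were positive and 9 negative, with a median log2 difference of -0.009. None passed (0 had an unadjusted p under 0.05 with limma, beside 6.79% of all genes). The largest was in Stx6, a syntaxin of the trans-Golgi network and endosomes, at -0.11 (SE 0.049, adjusted p 0.726). Stxbp5, the release inhibitor tomosyn, differed by -0.069 (SE 0.040, adjusted p 0.740).

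Of 22 genes for vesicle priming, clamping and vesicle proteins, 18 were negative, while 58.9% of all genes were positive, with a median log2 difference of -0.078. None passed with limma (5 had an unadjusted p under 0.05, 4 lower and 1 higher, beside 6.79% of all genes in either direction). Sv2b, a vesicle glycoprotein that binds Syt1, was at a log2 signal of 9.79 to 10.01 in CKO and 10.04 to 10.19 in WT, a log2 difference of -0.22 (SE 0.060, adjusted p 0.711). Syn2, a synapsin that tethers vesicles, differed by -0.21 (SE 0.071, adjusted p 0.711).

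Among 14 genes of dense-core vesicle cargo and enzymes, the compartment where Syt4 resides, 9 were negative, while 58.9% of all genes were positive. The median log2 difference was -0.055. None passed with limma (4 had an unadjusted p under 0.05, all lower, beside 6.79% of all genes in either direction). Npy, the neuropeptide Y gene, was at 9.83 to 10.09 in CKO and 10.44 to 10.54 in WT, a log2 difference of -0.51 (SE 0.064, adjusted p 0.10). Scg5, the chaperone 7B2 of a prohormone convertase, differed by -0.25 (SE 0.064, adjusted p 0.683). Npy is also an interneuron marker, and the 14 markers of that list had means of 9.48 to 9.85 in CKO and 9.53 to 9.68 in WT. Their differences ran both ways, 10 positive and 4 negative, with a median of 0.13. With limma 2 were higher and 2, Npy among them, lower at an unadjusted p under 0.05, and none passed the adjustment.

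Activity-induced genes, the class to which Syt4 belongs, had 10 of 16 differences above 0, beside 58.9% of all genes, with a median of 0.031. With limma 1 had an unadjusted p under 0.05, beside 6.79% of all genes. That gene was Nr4a2, with a log2 difference of -0.33 (SE 0.119, limma adjusted p 0.722), and Nr4a1 differed by 0.10 (SE 0.051, adjusted p 0.727). None of the 16 passed. Several had weak signals: the WT means of Fos, Bdnf, Npas4 and Egr2 were 7.32, 7.25, 7.27 and 7.41, near the filter of 6.84. In such signals a difference can be missed. Others were brighter, among them Dusp1 with a WT mean of 11.55. Of 8 presynaptic calcium channel subunits 6 were negative and none passed (1 had an unadjusted p under 0.05, beside 6.79% of all genes). Cacna1a, the pore of P/Q-type channels, differed by 0.19 (SE 0.081, adjusted p 0.726) and Cacna1e, of R-type channels, by -0.17 (SE 0.105, adjusted p 0.752). Without WT 38 these differences were 0.29 and -0.032.

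**Figure D4:**
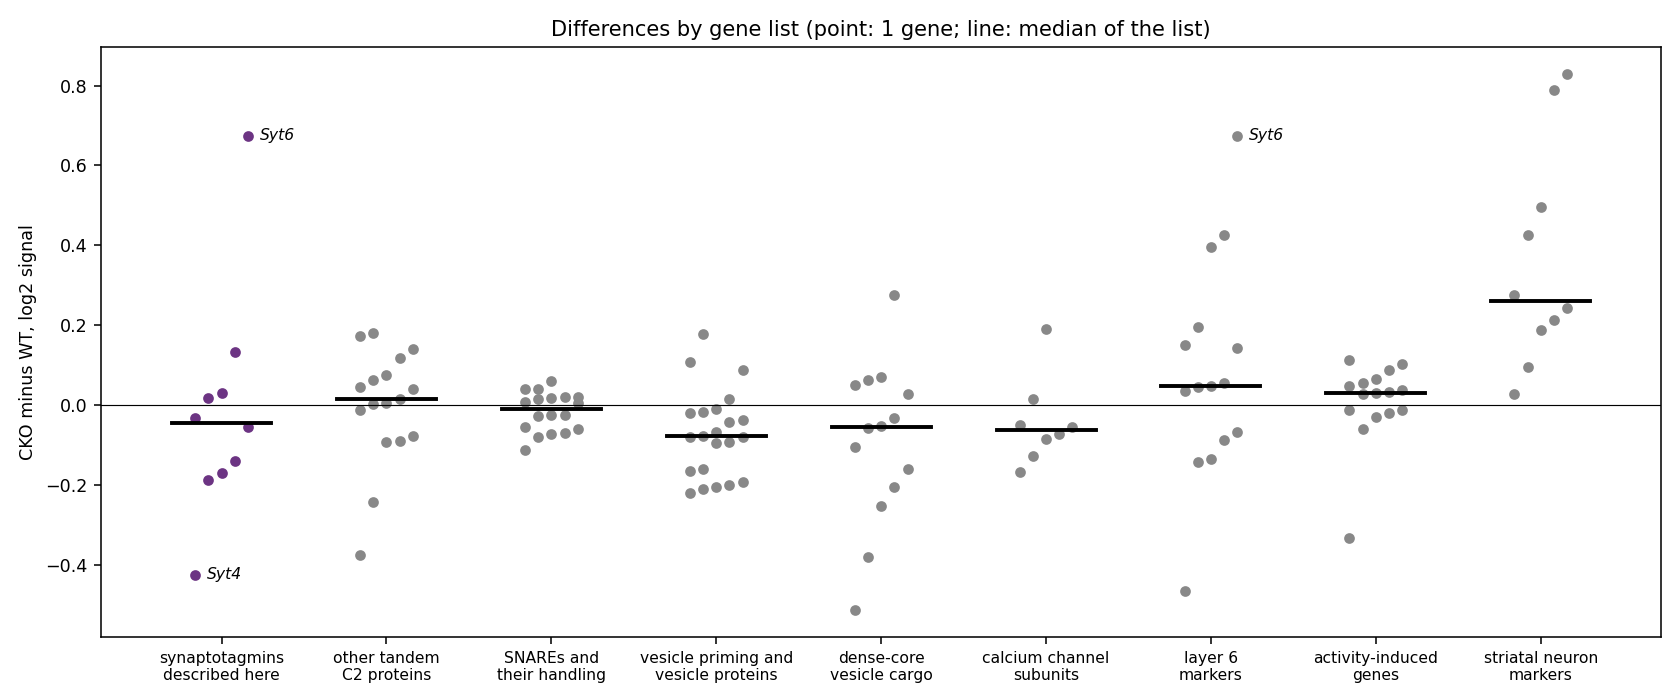
Log2 difference, CKO minus WT (y axis), of each gene tested (point) in 9 lists, with the median of each list as a line. Syt6 at 0.67 and Syt4 at -0.43 are the extremes of the synaptotagmins, and the SNAREs lie between -0.11 and 0.060.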

How the data were processed

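The deposited values are log2 signals that the authors made with RMA in Affymetrix Expression Console (submitters' processing notes). Its version and the genome build are not stated in those notes. The platform annotation gave 1 gene symbol to 21786 of 35468 probe sets, several to 1621 and none to 12061. Probe sets with a mean below the 25th percentile were left out and the brightest stood for each gene, which left 16144 genes and all 10 members. All 10 members matched RefSeq (GRCm38.p6) by Entrez identifier. CKO was compared with WT over 7 arrays with limma 3.58.1 in R 4.3.3 (lmFit, eBayes, no covariate, Benjamini-Hochberg adjustment over all genes), tested on simulated data. Errors beside differences are limma's standard errors (SE). The members and lists were chosen with earlier results of these data known. Named genes were all members, list members past the threshold or else the 2 with the smallest p, and the 5 genes with the nearest array profile to Syt6 and to Syt4, without predicted genes. Cell type lists not described held no gene past the threshold. Alternatives were normalization, filter, probe set averaging, variance model, array weights, array set and leaving out each array. Figures used matplotlib 3.10.9.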

Additional observations from a re-analysis of the deposited data

Results flagged for a closer look

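In 3 of 44 genes checked, 1 of the 4 CKO arrays stood apart from the others by most of the group's range, which chance gives in about 1 in 20 groups. Syt11 was at a log2 signal of 12.71 on CKO 1 against 12.61 to 12.63 on the other CKO arrays. Cacna1e was at 10.69 on CKO 4 against 10.89 to 10.91, and the endothelial cadherin gene Cdh5 was at 10.17 on CKO 1 against 9.93 to 9.97.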

How the results depend on the processing

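The log2 differences of Syt6 (0.65 to 0.70) and Syt4 (-0.47 to -0.37) kept their direction and moved by less than the spread between arrays under all 17 alternatives. Not all of these could move them. Other filters, probe set averaging (each gene has 1 probe set) and an intensity trend in the variance leave the differences as they were. Array set as a fixed block gives the same differences as set 2 alone. None of the members that were not picked passed the adjustment under any alternative. Limma called 4 genes over all arrays, 1 with quantile normalization or array weights, 1 to 6 when 1 array was left out, and 0 in set 2 alone (486 had an unadjusted p under 0.05) or with array set as a fixed block (611 had). Members lower in CKO with no overlap, the picked Syt4 included, numbered 4 in set 2 alone, where 17.3% of all genes were lower and 13.1% higher. They numbered 2 to 4 when 1 array was left out (3.61% to 10.5% of all genes). Those higher, the picked Syt6 included, numbered 1 with a filter at the 50th percentile, which leaves out Syt10. They numbered 2 when any 1 array was left out (5.97% to 16.1% of all genes). The filter at the 50th percentile also leaves out Syt2. Small differences turned: Syt2 to 0.00065 without WT 6 (-0.069 to 0.00065 with 1 array left out); Syt3 to -0.00293 with array weights, -0.054 with set as a block or set 2 alone and -0.065 without WT 6 (-0.065 to 0.090 with 1 array left out); Syt11 to -0.0084 with set as a block or set 2 alone; and Hba-x to -0.0099 without WT 38 (-0.0099 to 0.35 with 1 array left out). The cause was not tested. No paired analysis was possible because the groups share no replicate numbers.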

Other observations

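The order in which CKO 4 and CKO 43 were the 2 lowest CKO arrays was counted in the other lists too, after it had been seen in the synaptotagmins. It held for 7 of 12 upper-layer and callosal markers, 6 of 11 layer 5 markers, 6 of 15 layer 6 markers and 8 of 22 vesicle genes. It held as well for 6 of 14 interneuron markers and 4 of 10 striatal markers, but for 0 of 8 neocortical excitatory neuron markers. It held for 0 of 18 SNARE genes, 0 of 14 dividing cell markers, 0 of 14 astrocyte and radial glia markers and 1 of 16 activity-induced genes, beside 12.3% of all genes. The remaining lists lay between 14.3% (dense-core vesicle genes) and 37.5% (calcium channel subunits). These are counts in 4 arrays with no test.

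In the layer 5 list Nefm, the medium neurofilament subunit of projection neurons, had its lowest log2 signals on CKO 4 (7.85) and CKO 43 (8.19), against 8.37 and 8.38 on the other CKO arrays and 8.88 to 9.14 in WT. Its log2 difference was -0.77 (SE 0.130, limma adjusted p 0.301). Bcl11b, which encodes CTIP2, a regulator of subcerebral neurons, had the opposite sign, at 11.98 to 12.04 in CKO and 11.80 to 11.90 in WT, a log2 difference of 0.15 (SE 0.040, adjusted p 0.695).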
